A study of Mus musculus with 10 samples.

Results

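The SOCS family comprises Cish, which encodes CIS, and Socs1 to Socs7. These 8 genes were taken by name from the 55809 gene rows of the count tables. All 8 were present, and all 8 passed the filter of a mean count of at least 10 read pairs, as did 16363 genes in all. The count tables came from bulk RNA sequencing of Treg cells from the spleen and lymph nodes of mice that all carried the Foxp3-AID allele, in which Foxp3 is fused to an auxin-inducible degron and is accompanied by a ZsGreen reporter and Cre. The 4 R26-WT libraries came from mice with an unmodified ROSA26 locus. The 6 R26-TIR1(F74G) libraries came from mice that carry TIR1(F74G), the mutated subunit of a plant ubiquitin ligase, at ROSA26 with an mCherry reporter behind a loxP-flanked STOP cassette, so that Cre from the Foxp3 allele limits it to cells that have expressed Foxp3. Both groups received the auxin analog 5-ph-IAA for 14 days, which drives degradation of the Foxp3 fusion protein only where TIR1(F74G) is present. The labels give no age, and the file headers name male mice. Foxp3 lies on the X chromosome, and the paper describes a mild rise of inflammation in hemizygous males once Foxp3 is degraded. In such males, changes within the cells and changes through inflammation cannot be told apart. Where the study's general sorting scheme was used, R26-TIR1(F74G) cells were also gated on mCherry, and this gate and the genotype cannot be told apart.

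SOCS proteins are feedback inhibitors of cytokine receptors. A cytokine activates JAK kinases, these phosphorylate STAT transcription factors, and STATs induce SOCS genes. The SOCS proteins bind the receptor or the kinase through an SH2 domain and recruit a ubiquitin ligase through the SOCS box. Socs1 and Socs3 also hold a stretch that blocks JAK activity directly. Cish and Socs2 are classical targets of STAT5, the factor downstream of IL-2 in Treg cells, and Socs1 is needed in Treg cells to limit their response to interferon gamma. Socs4 to Socs7 are longer proteins with less defined roles, in part in growth factor receptor signalling.

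No member was called different between the groups. By DESeq2, 0 of 8 members had an adjusted p under 0.05, where 1.74% of all tested genes did (229 higher, 1.4%, and 55 lower, 0.336%). By the edgeR quasi-likelihood test it was also 0 of 8, against 0.373% of all genes. At an unadjusted DESeq2 p under 0.05 there was 1 member, Socs3, where 6.86% of all genes passed. The values of the groups overlapped for all 8 members, whereas 2.37% of all genes did not overlap. Log2 fold changes of R26-TIR1(F74G) over R26-WT ran from -0.21 for Socs5 to 0.28 for Socs3, with 4 members above and 4 below 0. Their median was -0.011, beside 0.00063 over all tested genes. These misses of the threshold do not show that the levels were equal. The intervals below state what differences remain possible. In bulk libraries, fewer cells that express a gene and less RNA per cell cannot be told apart.

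Libraries held 24158699 to 54795718 counted read pairs, and the shallowest was R26-TIR1(F74G) replicate 8. Each library name in the labels carries a mouse number of its own. No label states more about the origin of the replicates, and the p-values measure the spread between these libraries. Foxp3 transcript, which the degron does not target, was at 8930 ± 2366 normalized counts (SD, n = 4) in R26-WT and 9401 ± 3415 (SD, n = 6) in R26-TIR1(F74G). It therefore does not check the labels. All 8 Treg markers were measured and none was called by DESeq2 or edgeR. At an unadjusted p under 0.05 there were 2, Ctla4 (-0.31 on the log2 scale) and Tnfrsf18 (-0.42). The plasma cell markers Mzb1 and Tnfrsf17, the myeloid markers S100a9, Itgax and Cd14 and the NK cell marker Ncr1 were at 0 in every library. Other members of the same lists were present, with mean normalized counts of 1350 for Cd8b1, 630 for Prf1, 532 for Nkg7, 73.6 for Cd68 and up to 21 raw counts for Jchain, and of the B cell list Cd79b was at 812. Cd8a, Klrb1c and Klrd1 of the CD8 and NK cell list were low, at 12.5, 11.5 and 12.5, and Klrk1 did not pass the count filter. The summed levels of these lists overlapped between the groups, as did those of the B cell, erythroid, activated Treg and resting T cell lists. In these lists Tigit, Tcf7 and Cd22 were called higher by DESeq2, and none by edgeR. R26-TIR1(F74G) replicate 9 stood apart in the activated Treg list, with a sum of 17824 against 9723 to 11647 in the other libraries of its group, and in single genes (337 against 71.4 to 142 for Tigit, 273 against 23.6 to 51.2 for Cd22). Without this library, again no member was called. The summed level of the 10 proliferation genes did not overlap. It was 6187 to 7908 normalized counts in R26-WT and 10449 to 15592 in R26-TIR1(F74G), and 8 of the 10 genes were called higher by DESeq2 and 5 were called by edgeR. Its part in the member values was not tested.

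STAT factors bind the letters TTCNNNGAA, which read the same on either strand. Stretches of the RefSeq promoter windows of Cish and Socs3 are shown because these windows held a match. Windows from 250 bases before to 50 bases after the RefSeq start (build GRCm38.p6) were at hand for 4 members, namely Cish, Socs1, Socs3 and Socs4. Socs2, Socs5, Socs6 and Socs7 had no entry. The stretches below are 30 bases each, 5′ to 3′, with each match in capitals. Each window matched exactly 1 place of its chromosome in GRCm39. The Cish stretch is at chr9:107173853-107173882 on the plus strand and the Socs3 stretch at chr11:117860327-117860356 on the minus strand.
Cish: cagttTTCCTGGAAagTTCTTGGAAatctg
Socs3: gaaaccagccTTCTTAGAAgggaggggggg
The RefSeq starts lie 633 bases (Cish) and 681 bases (Socs3) downstream of the outermost gene start in the annotation used for counting, so both windows lie inside the annotated genes. The first Cish match begins at the RefSeq start itself and the second 11 bases after it. The Socs3 match begins 154 bases before the RefSeq start. The Cish window held 2 matches, separated by 2 bases, and Socs3 held 1. Of all 32851 windows of 300 bases, 8.30% held at least 1 match and 0.457% held 2 or more. The Socs1 and Socs4 windows held 0 matches, which says only that these letters are not in those bases.

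Cish lies on chromosome 9 from base 107173225 to 107179983 of GRCm39, on the plus strand. Antisense genes Gm17040 and Gm17041 lie over 11.5% of its exon bases, and pairs that touch both genes were not counted. Its normalized counts were 12012, 11766, 13083 and 12418 in the R26-WT replicates 1 to 4. In R26-TIR1(F74G) the lowest value was 11558, the median 13642 and the highest 15559. Of the 6 R26-TIR1(F74G) libraries, 5 lay above every R26-WT library and replicate 10 lay below them all. The means were 12320 ± 575 (SD, n = 4) and 13773 ± 1355 (SD, n = 6). The log2 fold change was 0.16 (SE 0.10, 95% interval -0.042 to 0.36, DESeq2 adjusted p = 1.00, unadjusted p = 0.120). The interval as a fold reached from 0.971 to 1.29.

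Socs3, the inhibitor of gp130 receptors such as that of IL-6, lies on chromosome 11 from 117856905 to 117860873 on the minus strand. It had the largest estimate of the family. R26-WT replicates 1 to 4 had 19438, 16755, 18998 and 15817 normalized counts, and R26-TIR1(F74G) replicates had from 16854 through a median of 23113 to 24120. The values fell in this order: 2 R26-WT libraries (replicates 2 and 4) were below all others, 2 R26-TIR1(F74G) libraries (replicates 6 and 10) lay among the R26-WT values, and 4 lay above every R26-WT library. The means were 17752 ± 1745 (SD, n = 4) and 21497 ± 3188 (SD, n = 6), a fold of 1.21 with a 95% interval of 1.00 to 1.47. The log2 fold change of 0.28 (SE 0.14) had an unadjusted DESeq2 p of 0.0492 and an adjusted p of 0.726. In edgeR the adjusted p was 0.775.

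Socs1, on chromosome 16 from 10600104 to 10603400 on the minus strand, restrains interferon and common gamma chain cytokine signals. R26-WT libraries had 18430, 16175, 25223 and 26451 normalized counts, and R26-TIR1(F74G) libraries from 16136 through a median of 20161 to 27224. The groups covered nearly the same span. The means of 21570 ± 5038 (SD, n = 4) and 21583 ± 4247 (SD, n = 6) gave a log2 fold change of 0.00085 (SE 0.19). Its 95% interval as a fold was 0.771 to 1.30, and differences within it could not be told from 0 with these libraries.

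Socs2, on chromosome 10 from 95221224 to 95253042 on the minus strand, is best known as the inhibitor of the growth hormone receptor. R26-WT libraries had 4214, 3617, 5122 and 4461 normalized counts, and R26-TIR1(F74G) libraries from 3228 through a median of 3874 to 4605. The log2 fold change was -0.18 (SE 0.14, 95% interval -0.44 to 0.088, DESeq2 adjusted p = 1.00).

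The 4 longer members had lower counts. Socs4 (chromosome 14, 47514388 to 47533559, plus strand) had 947 to 1224 normalized counts in R26-WT and 690 to 1237 in R26-TIR1(F74G), with a log2 fold change of -0.16 (SE 0.17, 95% interval -0.49 to 0.17). Socs5 (chromosome 17, 87415107 to 87445267, plus strand), which has been described to limit IL-4 and EGF receptor signals, had 762, 1099, 527 and 517 in R26-WT and 507 to 801 in R26-TIR1(F74G). One R26-WT library, replicate 2, held its highest value. The log2 fold change of Socs5 was -0.21 (SE 0.22, 95% interval -0.65 to 0.23), the widest interval of the family, and without R26-WT replicate 2 the estimate was 0.060. Socs6 (chromosome 18, 88683348 to 88945605, minus strand) had 952 to 1324 and 1028 to 1340, a log2 fold change of -0.022 (SE 0.13, 95% interval -0.29 to 0.24). Socs7 (chromosome 11, 97253261 to 97289368, plus strand) had 194 to 282 and 193 to 273, a log2 fold change of 0.017 (SE 0.16, 95% interval -0.29 to 0.33). All 4 had a DESeq2 adjusted p of 1.00 and an edgeR adjusted p of 0.999.

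**Figure D1:**
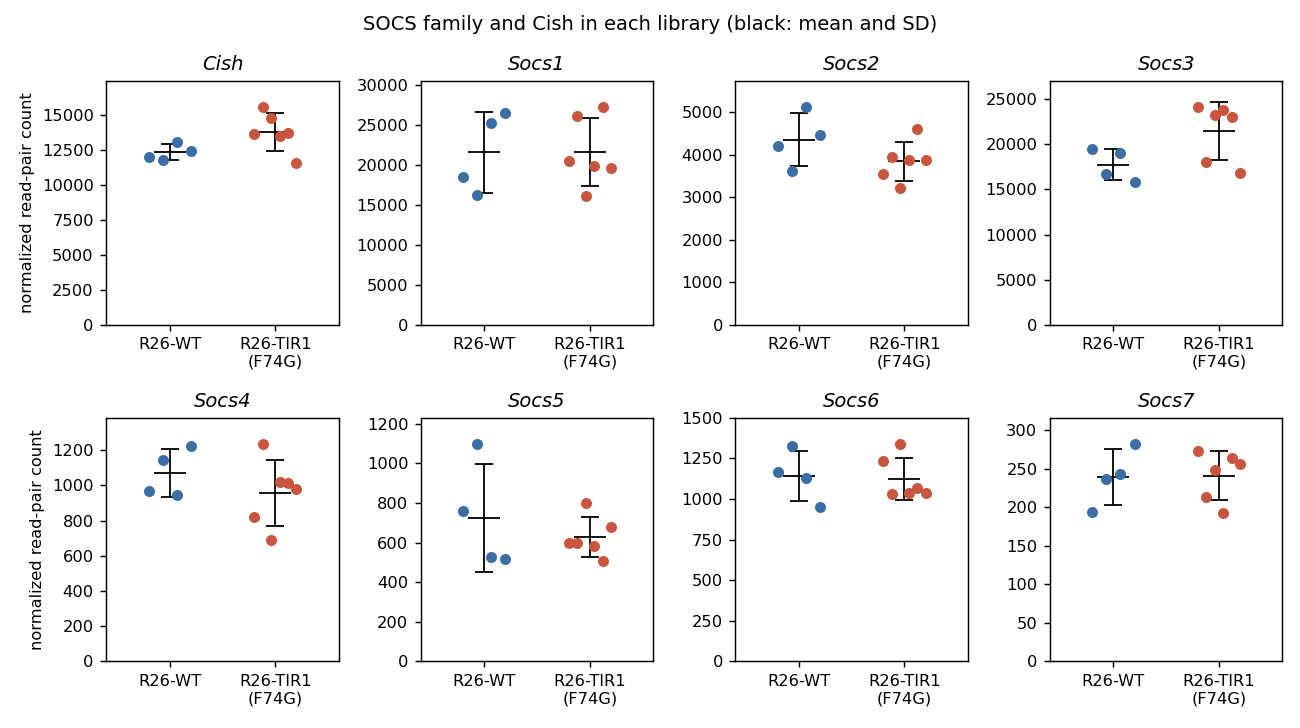
Normalized read-pair counts (y axis from 0, a scale per gene) of the 8 members in each library, with R26-WT in blue (n = 4), R26-TIR1(F74G) in red (n = 6) and the mean and SD in black. The groups overlap in every panel. In the Socs3 panel 4 of 6 R26-TIR1(F74G) libraries lie above every R26-WT library, and in the Cish panel 5 of 6 do. With the gene length trend removed, only replicate 6 does for Cish.

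**Figure D2:**
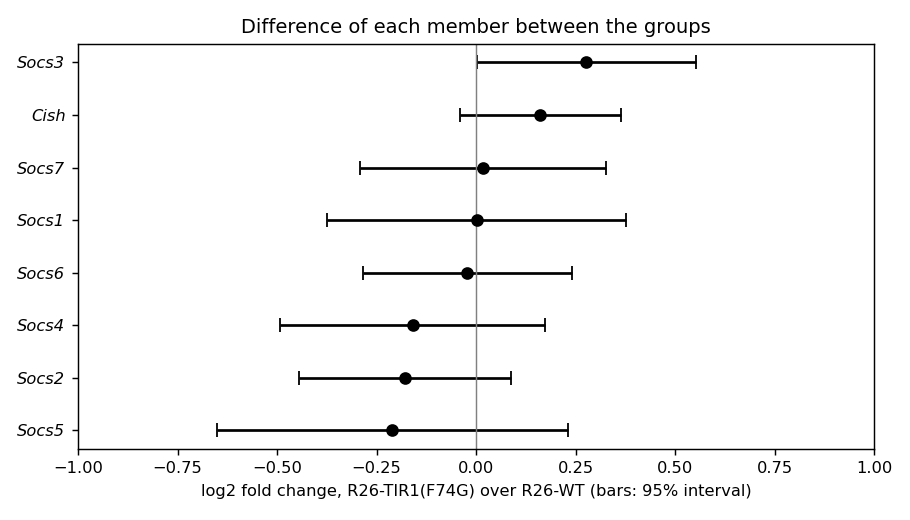
Log2 fold change of R26-TIR1(F74G) over R26-WT for each member (x axis) with its 95% interval from DESeq2. Estimates run from -0.21 for Socs5 to 0.28 for Socs3, and the interval excludes 0 for Socs3 alone, before any adjustment over genes.

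Levels differed far more between members than between groups. As TPM, the transcript share of a gene corrected for its exon length, over all 10 libraries, Socs1 was at 505.2 ± 69.8 (SD, n = 10), Socs3 at 478.4 ± 95.3 and Cish at 141.5 ± 16.9. These 3 genes held 95.3% of the family's summed TPM (93.8% to 96.0% across libraries). Socs1 stood at the 98.3 percentile of the TPM of tested genes and Socs7 at the 24.8 percentile. Then came Socs2 at 29.0 TPM, Socs4 at 9.996, Socs5 at 7.24, Socs6 at 6.90 and Socs7 at 2.24.

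The order was fixed at 4 of its 7 steps. Socs3 exceeded Cish in 10 of 10 libraries, with a geometric mean ratio of 3.34. Cish exceeded Socs2 (ratio 4.86), Socs2 exceeded Socs4 (2.93) and Socs6 exceeded Socs7 (3.06) in all 10 libraries as well. Socs1 exceeded Socs3 in 5 of 10 libraries (mean log2 ratio 0.092, SD 0.40) and Socs5 exceeded Socs6 in 5 of 10 (0.027, SD 0.26), so these neighbours did not separate beyond their spread. Socs4 exceeded Socs5 in 8 of 10, with a mean log2 ratio of 0.51 (SD 0.46). The order also depends on the length used. The files give the union of all annotated exons, 6419 bases for Cish and 9531 for Socs2, while the canonical transcripts of GENCODE M39 hold 3647 and 2540 bases. With canonical lengths, an alternative chosen after seeing the data, Socs3 came first, at 7510 ± 1211 normalized counts per kilobase (SD, n = 10), followed by Socs1 at 6619 ± 1319, Cish at 3617 ± 357 and Socs2 at 1594 ± 221. Socs6 then moved from the seventh place to the fifth, at 186 ± 21.7, ahead of Socs4 at 146 ± 24.6 and Socs5 at 140.0 ± 38.3. Socs7 stayed last at 32.7 ± 4.26.

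**Figure D3:**
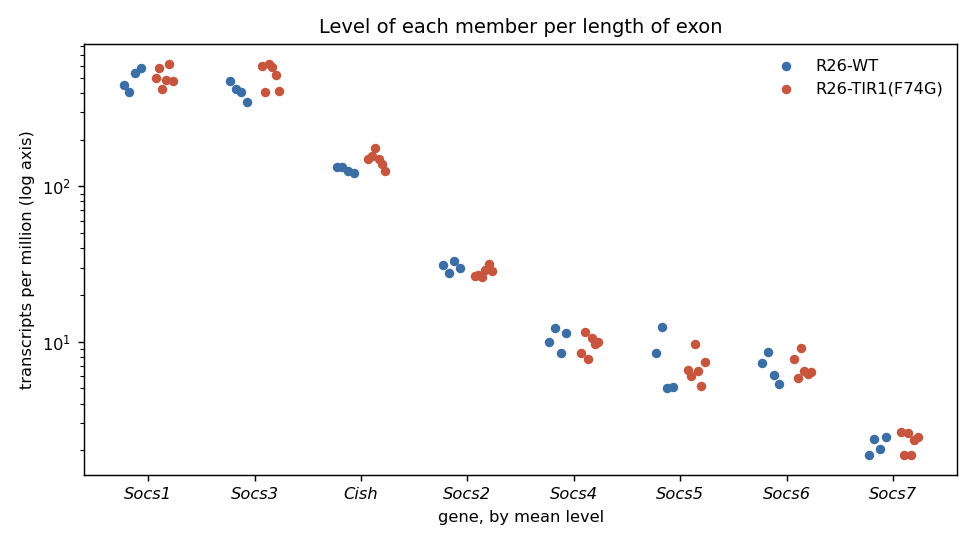
TPM of each member (log axis) in each library, with the genes in order of their mean and R26-WT in blue and R26-TIR1(F74G) in red. Socs1, Socs3 and Cish hold 95.3% of the family's TPM, and the groups overlap for each gene.

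Members differed in how much they varied among libraries of one group. In normalized counts Cish had the smallest within-group SD, 0.12 on the log2 scale, at the 8.45 percentile of all tested genes. Socs6, Socs2, Socs3 and Socs7 had 0.18, 0.19, 0.20 and 0.21. Socs4 had 0.25. Socs1 had 0.31 and Socs5 0.36, the largest, at the 51.8 and 60.6 percentiles. These percentiles are not matched for count level.

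Socs1, Socs5 and Socs6 varied together with a feature of the libraries. For each library, the level of long genes (8000 exon bases) relative to short genes (1000 bases) was taken from a smooth trend. The trend was fitted over tested genes above a minimum mean normalized count. This log2 difference ran from -0.54 in R26-WT replicate 3 to 0.58 in R26-TIR1(F74G) replicate 7. It was below -0.28 in 4 libraries, R26-WT replicates 3 and 4 and R26-TIR1(F74G) replicates 6 and 9. These were the 4 libraries with the highest Socs1, 25223 to 27224 normalized counts, and the other 6 had at most 20447. Socs5 ran the other way. The 3 libraries with the largest positive difference, R26-TIR1(F74G) replicate 7 and R26-WT replicates 2 and 1, held the 3 highest Socs5 values, 801, 1099 and 762. Socs6 ran like Socs5, and its 4 highest values, 1164 to 1340, were those of the 4 libraries with the largest positive difference. Socs2, with 9531 exon bases, was highest in R26-WT replicate 3, R26-TIR1(F74G) replicate 9 and R26-WT replicate 4, but the other library below -0.28, R26-TIR1(F74G) replicate 6, had 3952, under the 4214 of R26-WT replicate 1. Once the length trend was removed, the within-group SD fell to 0.24 for Socs1, 0.23 for Socs5 and 0.14 for Socs6. It rose to 0.22 for Cish, 0.39 for Socs2, 0.22 for Socs3, 0.37 for Socs4 and 0.30 for Socs7. With canonical lengths it was 0.18 for Cish, 0.16 for Socs2, 0.20 for Socs3, 0.20 for Socs5 and 0.14 for Socs6. It was 0.37 for Socs1, 0.44 for Socs4 and 0.35 for Socs7. After either removal Socs6 had a smaller SD than Cish, and the smallest of the family. No member was called after either correction.

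**Figure D4:**
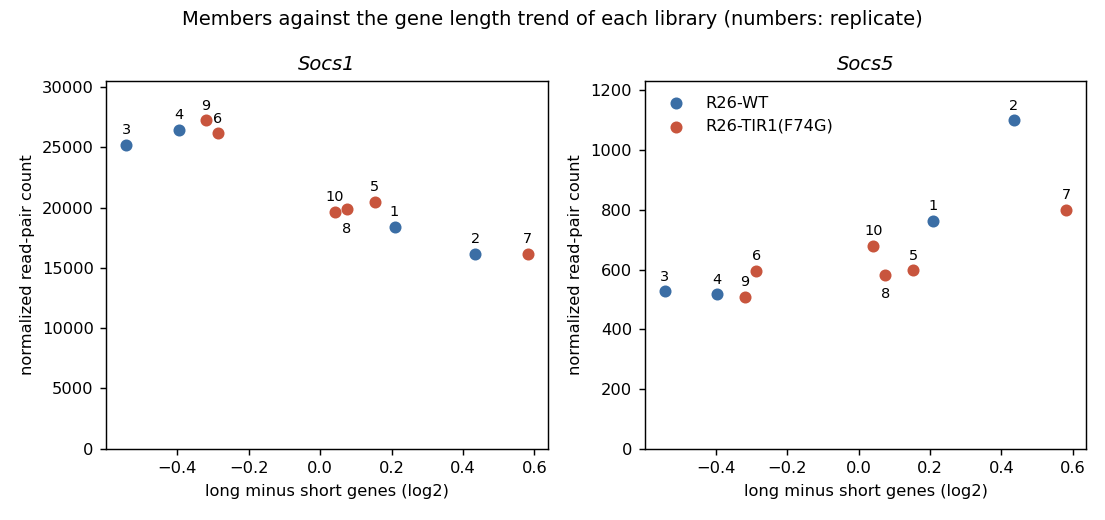
Normalized counts of Socs1 and Socs5 (y axes from 0) against the log2 difference between long and short genes in each library (x axis), with replicate numbers and R26-WT in blue and R26-TIR1(F74G) in red. Socs1 is highest in the 4 libraries at the left and Socs5 in the 3 at the right, in both groups.

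Genes whose values ran most like those of a member were named by the mean absolute difference of centred log2 counts over the 10 libraries, among 9983 genes. Socs1 ran closest with Ddt (0.032), Tspo (0.036) and Smdt1 (0.037), where its own mean deviation was 0.25. Those 3 genes have 773, 1051 and 1479 exon bases, and Socs1 has 2908. Cish ran closest with Tmem186 (0.060), Lef1 (0.069) and Setd4 (0.069), against an own deviation of 0.11. For Socs3 the closest gene was Cenpb at 0.10, and Habp4 was at 0.11, against an own deviation of 0.20. These distances are descriptions of the same 10 libraries.

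Over the 7 lists of genes from the surrounding pathway, 5 of 100 distinct genes tested were called by DESeq2 (5%, where 1.74% of all tested genes were) and 1 by edgeR. At an unadjusted p under 0.05 it was 14 of 100, against 6.86% of all genes. The lists were chosen with earlier results of these data known, so these shares do not measure an enrichment. No set test was run. Of 16 cytokine ligands 8 were tested, and 1 was called. Il4, the cytokine of type 2 help, had 16.7, 9.84, 7.32 and 10.1 normalized counts in R26-WT and from 75.9 through a median of 110.1 to 365.6 in R26-TIR1(F74G), so that no values overlapped. It rose by 3.76 on the log2 scale (SE 0.46), with an adjusted p of 6.35e-13 in DESeq2 and 0.0109 in edgeR. The highest value was that of replicate 9, the library that also stood apart in Tigit and Cd22, and the other 5 reached at most 144. Without replicate 9 the log2 fold change was 3.26, with a DESeq2 adjusted p of 6.33e-19. The median log2 fold change over the 8 ligands was 0.50. Il21 was at 1.08 (SE 0.45, DESeq2 adjusted p = 0.375), Lif at 0.63 (SE 0.31) and Il10 at 0.73 (SE 0.54), all with overlapping groups, and Osm, the ligand with the highest TPM, at -0.12 (SE 0.11).

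Of 28 cytokine receptor chains 20 were tested, 0 were called by DESeq2 or edgeR, and 2 had an unadjusted p under 0.05. The median log2 fold change was -0.0023. Those 2 were Il10rb, a shared chain of the IL-10 and interferon lambda receptors, at -0.35 (SE 0.11, DESeq2 adjusted p = 0.0801), and Il4ra, the binding chain for IL-4, at 0.67 (SE 0.24, adjusted p = 0.158). Il4ra averaged 17933 ± 5183 normalized counts (SD, n = 4) in R26-WT and 28571 ± 7947 (SD, n = 6) in R26-TIR1(F74G). The common gamma chain Il2rg, the receptor gene with the highest level, was at -0.17 (SE 0.15).

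The kinases and factors of the pathway, 11 of 11 tested, had 0 calls and 0 genes with an unadjusted p under 0.05. Of the 11 estimates 10 lay above 0, with a median of 0.067, where 8202 of all 16363 tested genes did. All come from the same libraries, and their shared sign was not tested. Jak2, one of the kinases that Socs3 inhibits, had the largest, 0.35 (SE 0.34). Jak3 was at 0.19 (SE 0.25), Stat3 at 0.067 (SE 0.13) and Jak1, the highest in TPM, at 0.032 (SE 0.26).

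Other inhibitors of the pathway (13 of 13 tested) gave 0 calls by DESeq2 or edgeR, 0 genes at an unadjusted p under 0.05, and estimates from -0.13 for Pias2 to 0.073. The phosphatase gene Ptpn2 was at -0.10 (SE 0.14), Ptpn6 at 0.030 (SE 0.11) and the interferon feedback gene Usp18 at -0.12 (SE 0.15). The partners with which the SOCS box forms a ubiquitin ligase (12 of 12 tested) likewise gave 0 calls by either tool and 0 genes at an unadjusted p under 0.05. Their median was -0.037. Rnf7, the RING subunit that pairs with cullin 5, was at -0.23 (SE 0.18), Rbx1 at -0.10 (SE 0.17), Eloc, which contacts the SOCS box, at -0.081 (SE 0.15) and Nedd8, the cullin modifier, at -0.069 (SE 0.19).

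Among other proteins with a SOCS box, 19 of 31 genes were tested and 1 was called by DESeq2. Spsb1, which targets inducible nitric oxide synthase for degradation, had 2090, 1764, 1411 and 1712 normalized counts in R26-WT and from 2092 through a median of 2383 to 2677 in R26-TIR1(F74G). The gap between the groups was small, 2090 against 2092. Its log2 fold change was 0.44 (SE 0.13), with an adjusted p of 0.0496 in DESeq2 and 0.219 in edgeR. The call was lost in 8 of 10 fits that left out 1 library, all but those without R26-WT replicate 1 and R26-TIR1(F74G) replicate 9, with an adjusted p of up to 0.255. Asb6, at 0.15 (SE 0.068, DESeq2 adjusted p = 0.531), also had groups that did not overlap. The estimates of Lrr1 and Asb2 were 1.39 (SE 0.46, adjusted p = 0.110) and 0.79 (SE 0.43), at means of at most 63.7 normalized counts. Wsb1, the highest in TPM, was at -0.00094 (SE 0.081).

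Of 18 genes that STAT signalling is known to induce, 3 were called by DESeq2 (1.74% of all tested genes) and 0 by edgeR (0.373%). At an unadjusted p under 0.05 there were 6 (6.86% of all genes), and 3 had groups that did not overlap (2.37%). This list, too, was chosen with earlier results known, so these shares do not measure an enrichment. The median log2 fold change was -0.043. The 3 went in both directions. Junb, an AP-1 subunit, had 68015, 40255, 63221 and 50328 normalized counts in R26-WT and from 28835 through a median of 34960 to 38778 in R26-TIR1(F74G), which gave -0.70 on the log2 scale (SE 0.17), with an adjusted p of 0.00279 in DESeq2 and 0.0673 in edgeR. Pim1, a kinase induced by STAT5, had 4483, 3537, 4847 and 4518 against 2327 through a median of 3103 to 3378, which gave -0.57 (SE 0.15), with an adjusted p of 0.0161 in DESeq2 and 0.126 in edgeR. Bcl2, which protects from apoptosis, had 35860, 48551, 36792 and 42320 against 49017 through a median of 53467 to 55092, which gave 0.37 (SE 0.11), with an adjusted p of 0.0431 in DESeq2 and 0.192 in edgeR. These 3 are the ones without overlap. Antisense Gm26885 lies over 14.5% of the exon bases of Pim1, and other genes lie over 7.52% of those of Junb and 6.09% of those of Bcl2.

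With 1 library left out, the call was lost in 1 of 10 fits for Junb (without R26-WT replicate 1, adjusted p = 0.0519), in 4 for Pim1 (without R26-WT replicates 1, 3 or 4 or R26-TIR1(F74G) replicate 10, adjusted p up to 0.149) and in 9 for Bcl2 (all but that without R26-WT replicate 2, adjusted p up to 0.275). Il4 kept its call in 10 of 10. In the other fits besides edgeR, Bcl2 was also lost with TMM size factors (adjusted p = 0.0588), in voom (0.0899) and with the length trend removed (0.373, or 0.465 with canonical lengths), at log2 fold changes of 0.32 to 0.37. Pim1 was lost in voom (0.0998, at -0.59), and Spsb1 in voom (0.139, at 0.45) and without the count filter (0.0592, at 0.45). Junb is also one of 12 immediate early and stress genes, whose levels can move while tissue is handled. Their summed level was 123111 to 172780 normalized counts in R26-WT and 93384 to 121590 in R26-TIR1(F74G), without overlap. Fos, Jun and Junb were called lower by DESeq2, and by edgeR only Jun was (adjusted p = 0.0473, with 0.244 for Fos). Without Junb itself the sums were 82855 to 104765 and 64549 to 82812, and without Fos, Jun and Junb they overlapped. The mean log2 level of the list, in which each gene weighs the same, overlapped too (10.9 to 11.5 against 10.7 to 11.5). Of the 12 genes 4 had an estimate above 0. The part of this in the STAT-induced genes was not tested.

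**Figure D5:**
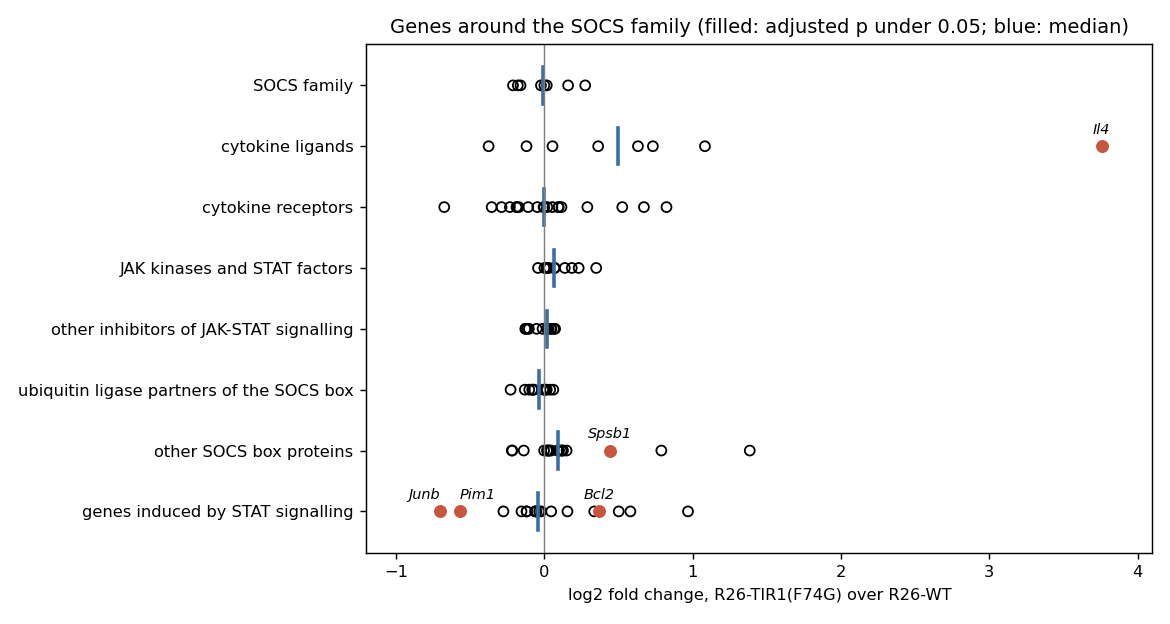
Log2 fold changes of R26-TIR1(F74G) over R26-WT (x axis) for the tested genes of each list, with filled red points for a DESeq2 adjusted p under 0.05, open points for the rest and a blue bar at the list's median. The SOCS family holds no filled point and spans -0.21 to 0.28, while Il4 lies at 3.76.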

How the data were processed

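The authors deposited raw read-pair counts per gene, 1 table per library. Per the file headers they were made with featureCounts 2.1.1 on GENCODE M30 (GRCm39), from primary alignments with a minimum mapping quality of 30 whose mates shared 1 chromosome, and no strand option. The study's methods name STAR for alignment and another featureCounts version, and the processing notes name Bowtie2. Pairs over several genes are left out by these options. All 37 mitochondrial rows held 0 counts. For bulk libraries of female mice, the study's methods describe cDNA amplified from little RNA and name no molecular identifiers. Where that protocol was used here too, counting error is a lower limit.

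The 16363 genes that averaged 10 counts or more were tested in R 4.3.3 with DESeq2 1.42.0 (design of genotype alone, Wald test of both sides, p adjusted after Benjamini and Hochberg over all tested genes with a threshold of 0.05, 6 genes without an adjusted p), as the study's methods name it, with edgeR 4.0.16 (quasi-likelihood) beside it. Normalized counts are counts over DESeq2 size factors. TPM used the exon length in the files. The 21 pairs of libraries within groups had a chi-square per degree of freedom from 9.84 to 242, so no pair was taken as 1 library. Scripts were tested on simulated data. Alternatives were limma 3.58.1 voom, TMM size factors, removal of a gene length trend, no filter, 1 surrogate variable (sva 3.50.0) and leaving out each library. A pseudocount of 1 was added for the log values of within-group SDs, likeness and marker levels. Named were all members and, of each pathway list, the up to 4 genes with the smallest p and the gene with the highest TPM. For likeness, the 3 closest genes with a mean normalized count of at least 100 were named. Marker genes were named beside a result. Some genes that these rules name are not reported here. Members and lists were chosen with earlier results of these data known.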

Additional observations from a re-analysis of the deposited data

Results flagged for a closer look

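Library totals, normalized counts of members and mean log2 levels of marker lists were screened for a lone extreme library. Of 38 such sets of values in 1 group, 1 was marked, where chance gives about 1.9. Summed levels were not screened, and R26-TIR1(F74G) replicate 9, high in the activated Treg sum, was not marked on the mean log2 level of that list. The mean log2 level of the 10 myeloid markers was lowest in R26-TIR1(F74G) replicate 8, at 1.31, while the other 5 libraries of that group had 1.73 to 1.92. Replicate 8 is also the shallowest library. No set of values of a SOCS family member was marked.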

How the results depend on the processing

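No member was called in any of 17 alternative fits, and Cish, Socs2, Socs3 and Socs4 kept the sign of their estimate in all 17. Socs3 ran from 0.23 to 0.34 and its lowest adjusted p was 0.320. With 1 library left out, Cish ran from 0.12 to 0.21, Socs2 from -0.26 to -0.090 (without R26-WT replicate 3) and Socs4 from -0.25 (without R26-TIR1(F74G) replicate 6) to -0.080 (without R26-TIR1(F74G) replicate 7), with -0.087 without R26-WT replicate 4. Cish was at 0.10 in voom and 0.11 with the length trend removed, and Socs5 at -0.064 in voom and -0.089 with 1 surrogate variable. The near-zero estimates changed sign. Socs1 was at -0.0070 in edgeR and with TMM size factors, -0.094 in voom, -0.041 with the trend over canonical lengths removed and -0.068 with 1 surrogate variable. Socs6 was at 0.0053 in voom and 0.019 with 1 surrogate variable. Socs7 was at -0.016 in voom, -0.057 with the length trend removed and -0.071 over canonical lengths. With 1 library left out, Socs1 ran from -0.11 to 0.12, Socs5 from -0.34 to 0.060, Socs6 from -0.098 to 0.057 and Socs7 from -0.071 to 0.11. The cause was not tested. The count of 284 called genes was 61 in edgeR, 80 in voom and 544 with 1 surrogate variable, and 187 to 346 with 1 library left out, lowest without R26-WT replicate 4. Genes called lower, 55 in the main fit, were 7 in edgeR, 11 in voom, 110 with the length trend removed and 175 with 1 surrogate variable. With 1 library left out they ran from 26 (without R26-WT replicate 3) to 88 (without R26-WT replicate 2). Of 7 steps in the order of levels 4 held in every library, also with canonical lengths, though in another order of genes. No paired analysis was possible because no replicate number occurs in both genotypes. The lowest raw count of a member in any library was 109, for Socs7.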
